A study of Homo sapiens with 10 samples.

Results

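The genes described here are 37 enzymes, sensors and carriers of cholesterol and fatty acid synthesis. They were taken as a list of names, which was chosen with earlier results of these data known. The rows of the deposited gene tables that carry each name were used, and every name was found among the 23170 genes of each table. Sorted by what their products do, they fall into 6 roles: 5 genes for the mevalonate steps, 9 for the steps from squalene to cholesterol, 4 for sterol sensing and transport, 5 for the steps from acetyl-CoA to palmitate, 10 elongases and desaturases, and 4 acyl-CoA synthetases.

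RNA was sequenced from 10 samples of 4 lines, all grown from the human prostate cancer line PC3, to ask what forced expression of the transcription factors OVOL1 and OVOL2 does to mesenchymal prostate cancer cells. PC3-Epi (2 samples) is a luciferase-expressing epithelial subpopulation of PC3, picked for its light output and its shape. PC3-EMT14 (3 samples) is a mesenchymal derivative, isolated after PC3-Epi had been grown with IL4-treated CD14+ macrophages. Putting a lentiviral OVOL1 construct into that line gave PC3-EMT14-OVOL1 (3 samples), and an OVOL2 construct in a different vector gave PC3-EMT14-OVOL2 (2 samples). The control for both is PC3-EMT14 itself, with no empty-vector line named for these samples, and all 4 lines derive from the luciferase-carrying PC3-Epi. FPKM values scale fragments to the length of the transcript and, here by upper-quartile normalization, to the transcriptome-compatible fragments. Each table gives 1 such value per line, pooled by the authors over the samples of that line. A difference between lines could therefore not be set against the spread between samples, and no value below has an SD or a p-value. The depth behind each value is unknown.

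Cholesterol and fatty acids are both built from acetyl-CoA in the cytosol. In the sterol branch acetyl-CoA passes through mevalonate and the isoprenoids to squalene, which is closed into a ring and trimmed to cholesterol, whereas in the fatty acid branch it is carboxylated to malonyl-CoA, assembled into palmitate, and then elongated, desaturated and activated to acyl-CoA. Many genes of both branches are targets of the transcription factors SREBP-1 and SREBP-2, encoded by SREBF1 and SREBF2, which are held at the endoplasmic reticulum by INSIG proteins when sterols are plentiful and act at promoters together with NF-Y and Sp1.

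Promoter sequence was given for 34 of the 37 genes, as 250 bases before to 50 bases after the annotated start (RefSeq, GRCh38.p14). No entry was given for FASN, SQLE or FDFT1. The windows below, of 60 bases each, are written 5′ to 3′ on the strand of the gene. They lie in genes to which the comparisons below return. Each holds a box that SREBPs, NF-Y or basic helix-loop-helix factors are known to bind. The MVK window also holds inner bases of the OVOL2 consensus used in the study. Capitals mark the matches described next, and Sp1 boxes, which are counted below, are left in lower case. The matches are a sterol regulatory element (TCACNCCAC) and an NF-Y box (CCAAT, reading ATTGG on the other strand) in SREBF2, an NF-Y box in HMGCS1, FDPS and TM7SF2, a pair of them in SCD, an E-box (CACGTG) in INSIG1, and an NF-Y box followed by the OVOL core (CCGTTA, reading TAACGG on the other strand) in MVK.
SREBF2, chr22:41832960-41833019, plus strand: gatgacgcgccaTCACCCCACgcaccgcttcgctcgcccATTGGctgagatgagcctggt
HMGCS1, chr5:43313520-43313579, minus strand: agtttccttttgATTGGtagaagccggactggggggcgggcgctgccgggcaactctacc
FDPS, chr1:155308678-155308737, plus strand: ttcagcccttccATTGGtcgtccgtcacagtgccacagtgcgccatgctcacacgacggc
INSIG1, chr7:155297811-155297870, plus strand: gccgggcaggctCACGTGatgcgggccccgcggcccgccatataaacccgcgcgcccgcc
SCD, chr10:100346992-100347051, plus strand: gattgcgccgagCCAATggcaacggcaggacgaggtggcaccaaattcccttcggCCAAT
TM7SF2, chr11:65111786-65111845, plus strand: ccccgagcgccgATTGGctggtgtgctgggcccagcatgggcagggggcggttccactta
MVK, chr12:109573632-109573691, plus strand: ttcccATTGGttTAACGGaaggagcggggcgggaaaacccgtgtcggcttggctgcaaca

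Searched on both strands, the NF-Y box was found in 26 of the 34 promoters (76.5%), against 39.7% of the 27305 genes with an entry and 43.7% of the 8503 of those that averaged 1 FPKM or more here. The Sp1 box CCGCCC was in 31 (91.2%), against 48.3% and 78.2%. The sterol regulatory element was in 2 (5.88%, against 1.39% and 1.52%), SREBF2 at -133 and ACSL1 at -242 from the start. Only the form TCACNCCAC was searched, so a promoter without a match may still hold another form of this element. The E-box was in 4 (11.8%, against 8.77% and 12.7%) and the OVOL core in 1, MVK at -150 (2.94%, against 3.80% and 5.46%). None of the searched boxes contains another. By role, the NF-Y box was in 4 of 5 mevalonate genes, 6 of 7 squalene to cholesterol genes, 3 of 4 sensing genes, 4 of 4 palmitate genes, 7 of 10 elongases and desaturases and 2 of 4 acyl-CoA synthetases. The OVOL core is 1 form of the inner bases of the longer consensus that the study used for OVOL2. Other forms were not searched, and the match in MVK does not complete that consensus. A match describes letters in this window and is not a measured binding site.

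The forced genes followed the labels. OVOL1 stood at 11.3 FPKM in PC3-EMT14-OVOL1, against 0.0238 in PC3-EMT14, 0.0701 in PC3-EMT14-OVOL2 and 4.25 in PC3-Epi. OVOL2 stood at 831 FPKM in PC3-EMT14-OVOL2, against 0.374 in PC3-EMT14, 0.562 in PC3-EMT14-OVOL1 and 9.91 in PC3-Epi, so OVOL2 in its line lay far above the epithelial level, whereas OVOL1 lay closer to it. The 5 epithelial markers summed to 1660 FPKM in PC3-Epi, 881 in PC3-EMT14, 996 in PC3-EMT14-OVOL1 and 1510 in PC3-EMT14-OVOL2, and the 4 mesenchymal markers to 87.7, 326, 219 and 105 FPKM in the same order. KRT19 made up most of the epithelial sum in PC3-EMT14 and PC3-EMT14-OVOL1, at 656 and 608 FPKM, and was the only epithelial marker lower in the latter. CDH1 stood at 50.6, 0.981, 16.2 and 39.2 FPKM in the order of the sums. Of 10 macrophage markers, 9 were under 1 FPKM in every line, with 0.176 the highest value. The exception was CD68, a lysosomal protein, at 13.2 FPKM in PC3-Epi and between 51.2 and 57.8 in the other lines. Among markers of luminal prostate cells, KLK2 and KLK3 were listed at 0 in every line, and TMPRSS2 stood at 5.50 FPKM in PC3-Epi and between 0.946 and 1.66 in the other lines. The part of these marker differences in the results below was not tested. In pooled bulk RNA, fewer cells of a type and less RNA per cell cannot be told apart.

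No gene of the list that averaged 1 FPKM or more was 2-fold higher in any of the 4 comparisons, and TM7SF2 alone was 2-fold lower, in PC3-Epi. The list differed from the bulk of genes by small shifts that most of its members shared. For a count at 2-fold, a gene had to reach 1 FPKM in the higher line. Genes that enter only through the line where they are high had to differ, so the counts at 1.5-fold and the medians below use 34 of the 37 genes, those whose mean over the 4 lines was at least 1 FPKM. The 3 genes left out of them are ELOVL4, ELOVL7 and ACSL5, which are described on their own.

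In PC3-EMT14-OVOL1 over PC3-EMT14, 34 genes of the list reached the floor and none was 2-fold higher or lower, where 2.43% of 12197 genes were higher and 1.54% lower. At 1.5-fold, 4 of the 34 were higher and 0 lower (all genes: 4.88% and 3.44%). Any ratio above 1 was seen in 26 of 34, against 50.5% of all genes, and the median log2 ratio was 0.26, with quartiles of 0.03 and 0.51. Over all genes the median was 0.00 and the quartiles -0.15 and 0.16. The 4 genes past 1.5-fold were INSIG1, SCD, FDFT1 and DHCR7.

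In PC3-EMT14-OVOL2 over PC3-EMT14, 35 reached the floor and again none was 2-fold higher or lower (all genes: 4.42% and 2.93%). At 1.5-fold, 0 were higher and 3 lower (all genes: 7.70% and 6.21%), the 3 being TM7SF2, ELOVL5 and SCD5. A ratio above 1 was seen in 22 of 34, against 44.0% of all genes, and the median log2 ratio was 0.11, against -0.04. The quartiles of the list, -0.08 and 0.25, overlapped those of all genes, -0.23 and 0.16.

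In PC3-Epi over PC3-EMT14, 36 reached the floor, of which 2 were 2-fold higher and 1 lower (all genes: 7.37% and 8.34%). The 2 higher genes, ELOVL7 and ELOVL4, entered only through their level in PC3-Epi. At 1.5-fold, 9 of the 34 were higher and 4 lower (all genes: 14.3% and 15.4%). A ratio above 1 was seen in 25 of 34, against 49.0% of all genes, and the median log2 ratio was 0.24, against -0.02. This comparison had the widest spread of the 4 over all genes, with quartiles of -0.36 and 0.33, beside 0.02 and 0.60 in the list. All 3 comparisons above rest on the same PC3-EMT14 samples, so their values are set side by side only.

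In PC3-EMT14-OVOL2 over PC3-EMT14-OVOL1, 35 reached the floor and none was 2-fold higher or lower (all genes: 1.90% and 1.17%). At 1.5-fold, 0 were higher and 2, SCD and FADS2, were lower (all genes: 4.19% and 2.65%). A ratio above 1 was seen in 7 of 34 and below 1 in 27, where 42.1% of all genes were above 1. The median log2 ratio was -0.21, against -0.04 over all genes. The ratios of this table differ by at most 0.0002 on the log2 scale from those computed through PC3-EMT14, so it restates the same libraries and adds no separate measurement.

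**Figure D1:**
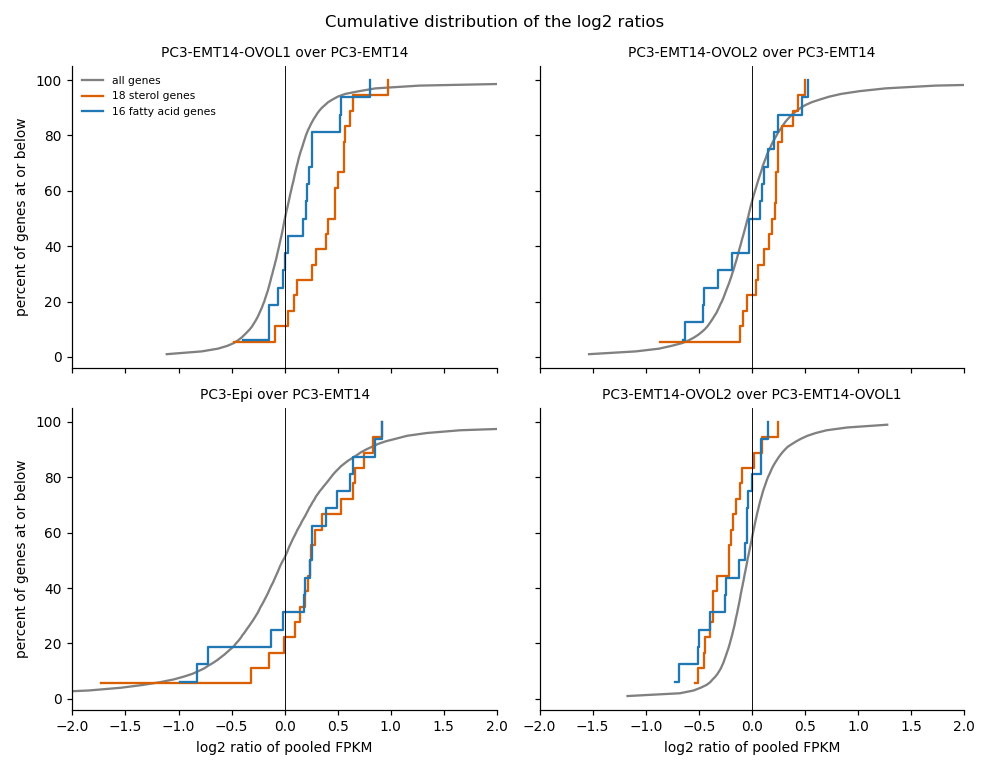
Cumulative percent of genes (vertical axis) at or below each log2 ratio of pooled FPKM (horizontal axis) in the 4 comparisons, for all genes averaging 1 FPKM or more (grey), the 18 sterol genes (orange) and the 16 fatty acid genes (blue). The sterol curve lies to the right of the grey one in PC3-EMT14-OVOL1, where 16 of 18 ratios were above 0, and to its left between the OVOL lines, where 15 of 18 were below 0.

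The shift in the OVOL lines had a larger median over the sterol genes than over the fatty acid genes. Taking the mevalonate, squalene to cholesterol and sensing roles together, 16 of 18 genes were above PC3-EMT14 in PC3-EMT14-OVOL1 (median log2 ratio 0.44), 14 of 18 in PC3-EMT14-OVOL2 (0.20) and 14 of 18 in PC3-Epi (0.24), and 3 of 18 were higher in the OVOL2 than in the OVOL1 line (-0.22). Of the 16 fatty acid genes, 10 were above PC3-EMT14 in PC3-EMT14-OVOL1 (median 0.18), 8 in PC3-EMT14-OVOL2 (0.02) and 11 in PC3-Epi (0.25), and 4 were higher in the OVOL2 than in the OVOL1 line (-0.09). Over all genes, 50.5%, 44.0% and 49.0% were above PC3-EMT14 in these 3 lines, and 42.1% were higher in the OVOL2 than in the OVOL1 line. The fatty acid count in PC3-EMT14-OVOL2 is thus near the share of all genes. The difference between the branches was not tested.

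**Figure D2:**
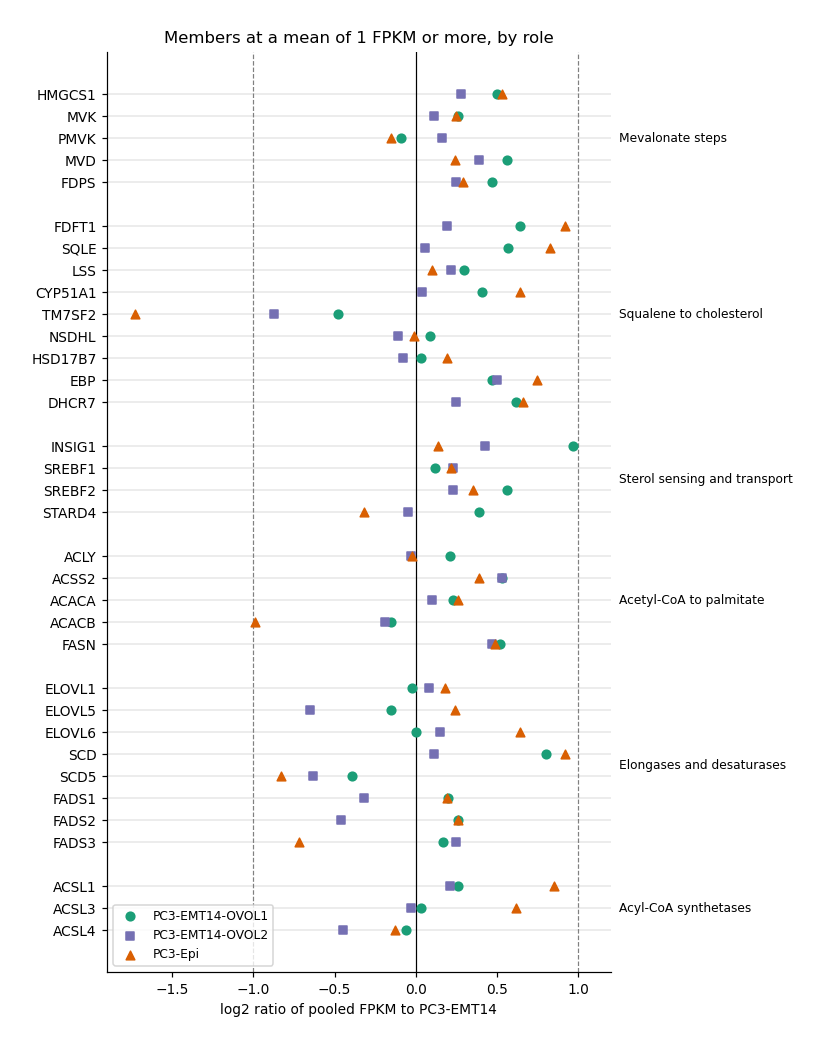
Log2 ratio of pooled FPKM to PC3-EMT14 (horizontal axis) for the 34 genes averaging 1 FPKM or more, in rows by role, in PC3-EMT14-OVOL1 (circles), PC3-EMT14-OVOL2 (squares) and PC3-Epi (triangles), with dashed lines at 2-fold. TM7SF2 in PC3-Epi, at -1.73, is the only point beyond a dashed line, and INSIG1 in PC3-EMT14-OVOL1, at 0.97, is the point nearest to the upper one.

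Among the genes for the mevalonate steps, 4 of 5 were above PC3-EMT14 in PC3-EMT14-OVOL1, 5 of 5 in PC3-EMT14-OVOL2 and 4 of 5 in PC3-Epi, all by less than 1.5-fold. Of all genes, 50.5%, 44.0% and 49.0% were above PC3-EMT14. The median log2 ratios of the 5 genes were 0.47, 0.25 and 0.25. The most abundant was FDPS, which makes farnesyl pyrophosphate, at 68.7 FPKM in PC3-EMT14, 94.0 in PC3-EMT14-OVOL1, 80.5 in PC3-EMT14-OVOL2 and 85.2 in PC3-Epi. HMGCS1, the cytosolic synthase that makes HMG-CoA, stood at 15.3, 21.4, 18.3 and 22.4 FPKM in the same order of lines. MVD, which decarboxylates mevalonate pyrophosphate, stood at 16.3, 23.9, 21.0 and 19.5 FPKM. All 3 were thus lowest in PC3-EMT14, and FDPS and MVD were highest in PC3-EMT14-OVOL1, at log2 ratios of 0.47 and 0.56. MVK, mevalonate kinase and the gene with the OVOL core in its promoter, had log2 ratios to PC3-EMT14 of 0.26 under OVOL1 and 0.11 under OVOL2, and of 0.25 in the epithelial line. PMVK, the next kinase in the chain, stood at 31.8, 29.5, 34.9 and 29.1 FPKM, so it was above PC3-EMT14 with OVOL2 and below it with OVOL1 and in PC3-Epi. FDPS has a deposited locus that runs 10452 bases past its annotation and over RUSC1, so its reads may include some from that gene.

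Of the 9 genes from squalene to cholesterol, 8 were above PC3-EMT14 in PC3-EMT14-OVOL1, 6 in PC3-EMT14-OVOL2 and 7 in PC3-Epi (all genes: 50.5%, 44.0% and 49.0%). The median log2 ratios were 0.41, 0.06 and 0.64. At 1.5-fold, 5 of the 9 were higher in PC3-Epi and 1 was lower (all genes: 14.3% and 15.4%). FDFT1, squalene synthase and the branch point to sterols, stood at 18.3 FPKM in PC3-EMT14, 28.4 in PC3-EMT14-OVOL1, 20.6 in PC3-EMT14-OVOL2 and 35.3 in PC3-Epi. SQLE, squalene epoxidase, an oxygen-dependent control step, stood at 27.6, 40.6, 28.3 and 49.9 FPKM. CYP51A1, which demethylates lanosterol, stood at 17.8, 23.3, 18.0 and 28.1 FPKM. These 3 genes showed 1 order of the lines: PC3-Epi highest, then PC3-EMT14-OVOL1, with PC3-EMT14-OVOL2 within 1.14-fold of PC3-EMT14. DHCR7, which makes cholesterol from 7-dehydrocholesterol, stood at 40.1, 61.2, 47.0 and 64.4 FPKM, in the same order. EBP, the sterol isomerase and the most abundant gene of the role, stood at 56.8, 78.3, 79.0 and 97.1 FPKM. At EBP the 2 OVOL lines were alike, at 1.39-fold and 1.41-fold over PC3-EMT14. LSS, which closes the sterol ring, did not share the order of FDFT1, SQLE and CYP51A1. Its log2 ratios to PC3-EMT14 were 0.30 under OVOL1, 0.22 under OVOL2 and 0.10 in the epithelial line. NSDHL, a decarboxylating C4 enzyme, and HSD17B7, a sterol ketoreductase, lay between -0.11 and 0.19 in these comparisons, near the median of all genes.

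TM7SF2, a sterol reductase of the C14 double bond, was the only sterol gene of the list below PC3-EMT14 in every other line. It stood at 26.8 FPKM in PC3-EMT14, 19.0 in PC3-EMT14-OVOL1, 14.4 in PC3-EMT14-OVOL2 and 8.22 in PC3-Epi, so it was highest in the mesenchymal line and lower in each of the others. The log2 ratios to PC3-EMT14 were -0.48, -0.87 and -1.73, and in PC3-Epi the gene was 3.32-fold lower. It lies at chr11:64879341-64883707 (hg19). The 40 nearest genes outside the list that averaged 1 FPKM or more had a median log2 ratio of -0.17 in PC3-Epi. Their quartiles were -0.6 and 0.1, so TM7SF2 lay well below the genes around it. Its promoter carries the same NF-Y box as those of HMGCS1 and FDPS, shown above.

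Among the 4 genes of sterol sensing and transport, INSIG1 had the largest ratio of the 34 genes in PC3-EMT14-OVOL1. INSIG1, the endoplasmic reticulum protein that retains the SREBP complex and is itself a known SREBP target, stood at 16.7 FPKM in PC3-EMT14, 32.4 in PC3-EMT14-OVOL1, 22.2 in PC3-EMT14-OVOL2 and 18.8 in PC3-Epi. It was 1.96-fold over PC3-EMT14 in PC3-EMT14-OVOL1, at the 97.4th percentile of all genes, 1.35-fold in PC3-EMT14-OVOL2 and 1.10-fold in PC3-Epi. Its level in PC3-EMT14-OVOL1 was thus above that of the epithelial line, which lay close to PC3-EMT14. The 33 neighbouring genes averaging 1 FPKM or more around chr7:155089486-155101945 (hg19) had a median log2 ratio of 0.09 in PC3-EMT14-OVOL1 over PC3-EMT14. SREBF2, which encodes SREBP-2, the regulator of the sterol branch, stood at 17.9, 26.2, 20.7 and 23.3 FPKM in the same order of lines. SREBF1, which encodes SREBP-1, the regulator of the fatty acid branch, stood at 12.6, 13.6, 14.5 and 14.9 FPKM, and its log2 ratios were 0.12, 0.23 and 0.22. SREBF2 was thus 1.47-fold over PC3-EMT14 in PC3-EMT14-OVOL1, whereas SREBF1 was within 1.17-fold in every line. The deposited locus of SREBF1 runs 128926 bases past its annotation and over RAI1, so its level is uncertain. STARD4, a cytosolic sterol carrier, stood at 6.78, 8.82, 6.46 and 5.53 FPKM, highest in PC3-EMT14-OVOL1 and lowest in PC3-Epi.

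The 5 genes from acetyl-CoA to palmitate had median log2 ratios of 0.23 in PC3-EMT14-OVOL1, 0.10 in PC3-EMT14-OVOL2 and 0.26 in PC3-Epi, and the 2 OVOL lines were closest to each other in this role, with a median of -0.05 between them. FASN, the synthase that assembles palmitate, stood at 24.1 FPKM in PC3-EMT14, 34.2 in PC3-EMT14-OVOL1, 32.9 in PC3-EMT14-OVOL2 and 34.5 in PC3-Epi. ACSS2, which makes acetyl-CoA from acetate, stood at 27.9, 40.0, 39.8 and 37.2 FPKM. Both genes were thus at nearly 1 level in the OVOL lines and PC3-Epi, between 1.31-fold and 1.45-fold above PC3-EMT14. ACLY, which makes acetyl-CoA from citrate, was the most abundant of the role at 53.0, 60.6, 51.2 and 53.0 FPKM and had no such step. The 2 acetyl-CoA carboxylases differed from each other: ACACA, the cytosolic form that supplies synthesis, stood at 7.18, 8.33, 7.61 and 8.75 FPKM, and ACACB, the mitochondrial form whose malonyl-CoA restrains fatty acid oxidation, at 2.76, 2.46, 2.38 and 1.42 FPKM. ACACB in PC3-Epi was 1.99-fold lower, just inside the 2-fold threshold, and low in level in every line. The locus of ACACA overlaps C17orf78.

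**Figure D3:**
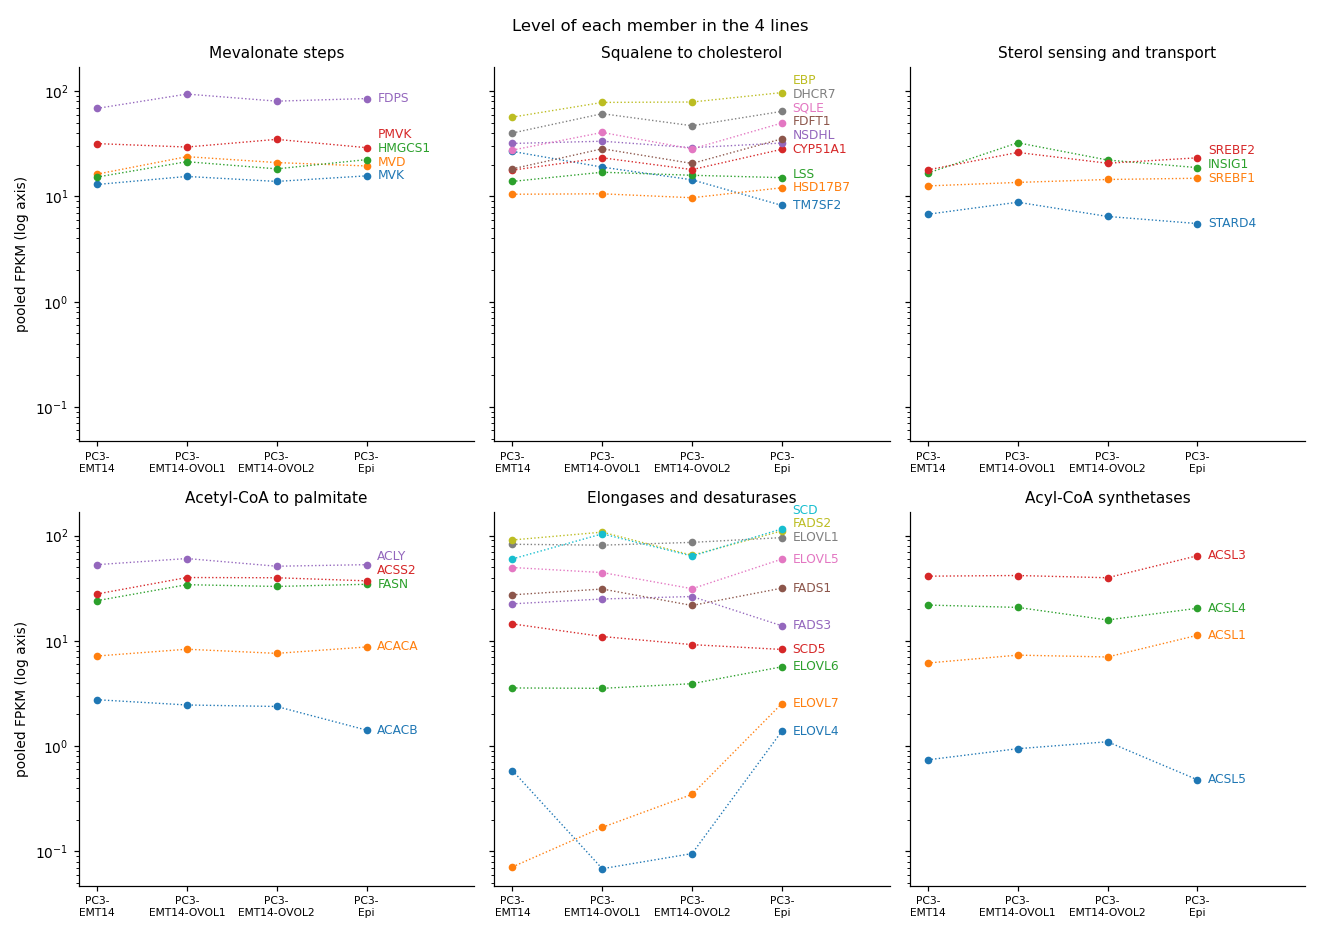
Pooled FPKM on a log axis (vertical) of all 37 genes in the 4 lines (horizontal), in 1 panel per role; dotted lines join the values of a gene and imply no order of the lines. Most genes stay within a narrow band, whereas TM7SF2 descends from 26.8 to 8.22 FPKM and ELOVL7 climbs from 0.0712 to 2.54.

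The elongases and desaturases were the most mixed role, and 8 of the 10 averaged 1 FPKM or more. Of these 8, 4 were above PC3-EMT14 in PC3-EMT14-OVOL1, 4 in PC3-EMT14-OVOL2 and 6 in PC3-Epi (all genes: 50.5%, 44.0% and 49.0%). SCD, stearoyl-CoA desaturase, which makes oleate, stood at 60.1 FPKM in PC3-EMT14, 104 in PC3-EMT14-OVOL1, 64.0 in PC3-EMT14-OVOL2 and 116 in PC3-Epi. Its levels fell into a low pair, PC3-EMT14 and PC3-EMT14-OVOL2, and a high pair, PC3-EMT14-OVOL1 and PC3-Epi, with log2 ratios to PC3-EMT14 of 0.80, 0.11 and 0.92. The 40 genes around SCD had medians of 0.05 in PC3-EMT14-OVOL1 and -0.36 in PC3-Epi. SCD5, the paralog that is not found in rodents, ran opposite to SCD at 14.5, 11.0, 9.21 and 8.29 FPKM, highest in PC3-EMT14 and lowest in PC3-Epi.

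The 3 fatty acid desaturases sit beside each other on chromosome 11, between 61567097 and 61659006 (hg19), and did not move alike. FADS2, the delta-6 desaturase that opens the path to polyunsaturated fatty acids, stood at 91.0 FPKM in PC3-EMT14, 108 in PC3-EMT14-OVOL1, 65.1 in PC3-EMT14-OVOL2 and 111 in PC3-Epi. FADS1, the delta-5 desaturase of the same path, stood at 27.4, 31.1, 21.7 and 31.7 FPKM. Both were lowest in PC3-EMT14-OVOL2, and between the OVOL lines FADS2 was 1.65-fold and FADS1 1.43-fold lower with OVOL2, whereas the 40 genes around them had a median log2 ratio of -0.01. FADS3 stood at 22.5, 25.0, 26.4 and 13.9 FPKM and was lowest in PC3-Epi. The annotated extents of FADS1 and FADS2 overlap, so some reads may be shared.

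Of the elongases, ELOVL1, which extends saturated very long chains, was the most abundant at 82.8 FPKM in PC3-EMT14, 81.2 in PC3-EMT14-OVOL1, 86.3 in PC3-EMT14-OVOL2 and 95.8 in PC3-Epi, and differed little. ELOVL5, which extends polyunsaturated chains, stood at 49.8, 44.6, 31.3 and 59.9 FPKM. It shared with FADS1 and FADS2 a lowest level in PC3-EMT14-OVOL2. ELOVL6, which extends palmitate to stearate, stood at 3.57, 3.54, 3.92 and 5.67 FPKM, with only PC3-Epi apart, at 1.56-fold. ELOVL7 stood at 0.0712, 0.169, 0.348 and 2.54 FPKM, under 1 FPKM in all lines but PC3-Epi, where it was 35.0-fold over PC3-EMT14. ELOVL4, known for the very long chains of retina and skin, stood at 0.586, 0.0684, 0.0953 and 1.39 FPKM. In PC3-Epi these 2 elongases were the only genes of the list past 2-fold upward, and both ratios rest on values under 1 FPKM in PC3-EMT14, whose precision is unknown. The 40 genes around ELOVL7 and around ELOVL4 had median log2 ratios of -0.23 and -0.12 in PC3-Epi.

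Acyl-CoA synthetases join free fatty acids to coenzyme A, and the 3 that averaged 1 FPKM or more had median log2 ratios to PC3-EMT14 of 0.03 under OVOL1 and -0.03 under OVOL2, and of 0.62 in the epithelial line. ACSL3, found on lipid droplets and the endoplasmic reticulum, stood at 41.2 FPKM in PC3-EMT14, 41.8 in PC3-EMT14-OVOL1, 39.8 in PC3-EMT14-OVOL2 and 64.4 in PC3-Epi. ACSL1 stood at 6.16, 7.32, 7.03 and 11.3 FPKM. Both were 1.5-fold or more higher in PC3-Epi (all genes: 14.3%), and the OVOL lines lay nearer to PC3-EMT14. ACSL4, which prefers arachidonate, stood at 21.9, 20.8, 15.8 and 20.4 FPKM and was lowest in PC3-EMT14-OVOL2. ACSL5 stood at 0.741, 0.945, 1.10 and 0.479 FPKM, too low to read an order from, and its locus overlaps ZDHHC6.

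Set directly against each other, the OVOL lines had their largest ratios at FADS2 and SCD among the 34 genes. With OVOL2 the log2 ratio over OVOL1 was -0.72 for FADS2, -0.69 for SCD, -0.54 for INSIG1, -0.51 for SQLE, -0.51 for FADS1, -0.50 for ELOVL5, -0.45 for FDFT1 and -0.44 for STARD4. Each of these 8 lay at or below the 4.7th percentile of all genes in that comparison. The 7 genes above 0 were PMVK at 0.25, ELOVL6 at 0.15, SREBF1 at 0.10, ELOVL1 and FADS3 at 0.09, EBP at 0.02 and ACSS2 at 0.00. By role the medians were -0.39 for sensing and transport, -0.38 for elongases and desaturases, -0.37 for squalene to cholesterol, -0.18 for the mevalonate steps, -0.06 for acyl-CoA synthetases and -0.05 for the palmitate steps. The epithelial and mesenchymal markers went further from PC3-EMT14 in the OVOL2 line than in the OVOL1 line: CDH1, E-cadherin, stood at 16.2 FPKM with OVOL1 and 39.2 with OVOL2, and VIM, vimentin, at 183 and 76.9. Of the 34 lipid genes, 27 had the higher level with OVOL1. The lines also differ in vector and in the level of the forced gene, and these cannot be told apart from the identity of the OVOL protein.

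**Figure D4:**
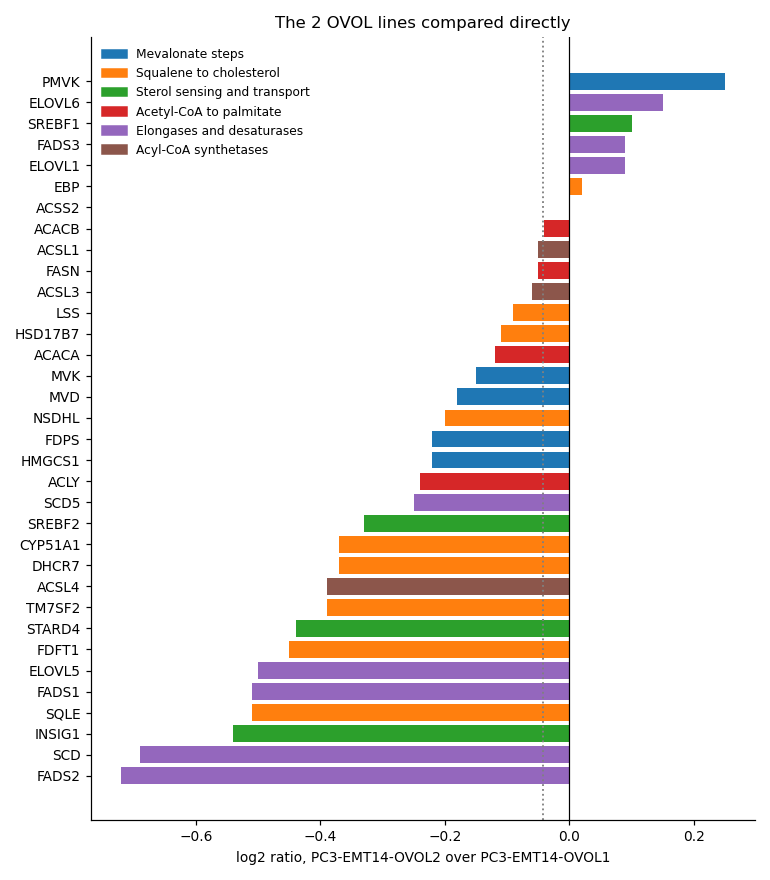
Log2 ratio of pooled FPKM in PC3-EMT14-OVOL2 over PC3-EMT14-OVOL1 (horizontal axis) for the 34 genes averaging 1 FPKM or more, sorted and coloured by role, with a dotted line at the median of all genes, -0.04. Of the bars, 27 lie below 0, with FADS2 and SCD the longest, and 7 lie at or above it.

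Isoform tables give a pooled FPKM for each assembled transcript. Among genes of at least 1 FPKM in both lines with several isoforms, 16 belonged to the list, and in none of them did the share of an isoform differ by 20 percentage points or more in any comparison. Over all such genes, 2.61% did in PC3-EMT14-OVOL1, 4.63% in PC3-EMT14-OVOL2, 6.15% in PC3-Epi and 3.04% between the OVOL lines. The largest shift within the list was that of ACACA, whose leading isoform made up 65.1% in PC3-EMT14, 72.2% in PC3-EMT14-OVOL1, 70.4% in PC3-EMT14-OVOL2 and 77.0% in PC3-Epi. The minor isoform of ACLY made up 17.6% in PC3-EMT14, 12.7% in both OVOL lines and 5.9% in PC3-Epi. Within the table of PC3-Epi and PC3-EMT14 that isoform went from 9.48 FPKM in PC3-EMT14 to 3.15 in PC3-Epi, a log2 ratio of -1.59, while the gene as a whole had a ratio of -0.02. The leading isoform of ELOVL6 made up 57.2% in PC3-EMT14 and between 65.5% and 67.1% in the other lines. In ACSL3 the OVOL lines lay on either side of PC3-EMT14: the minor isoform made up 36.9% there, 32.3% in PC3-EMT14-OVOL1, 40.3% in PC3-EMT14-OVOL2 and 47.7% in PC3-Epi. For LSS, 1 isoform was listed at 0 in PC3-EMT14 and PC3-Epi and at 1.12 and 1.04 FPKM in the OVOL1 and OVOL2 lines. The exons that set these isoforms apart were not analysed here.

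**Figure D5:**
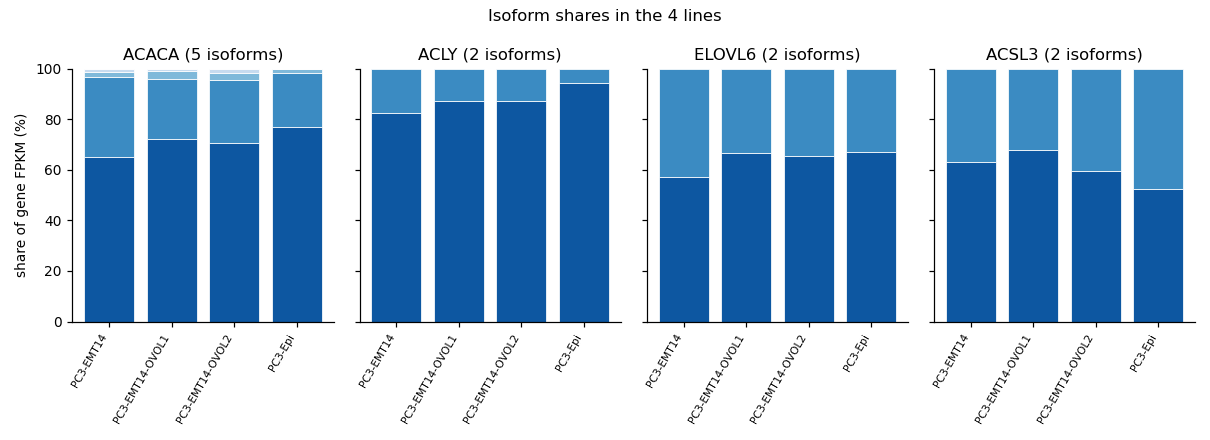
Share of each isoform in the summed FPKM of its gene, in percent (vertical axis), in the 4 lines (horizontal axis) for ACACA, ACLY, ELOVL6 and ACSL3; each shade is 1 isoform, darkest for the one with the highest mean share. In ACACA and ACLY the leading isoform is smallest in PC3-EMT14 and largest in PC3-Epi, with the OVOL lines between, and every shift is under 20 points.

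Other genes of the same pathways, outside the 37, were given by list. Of 19 further sterol genes (enzymes, SREBP processing, uptake and efflux) averaging 1 FPKM or more, 12 were above PC3-EMT14 in PC3-EMT14-OVOL1 (median log2 ratio 0.13), 11 in PC3-EMT14-OVOL2 (0.03) and 12 in PC3-Epi (0.30), and 8 were higher in the OVOL2 than in the OVOL1 line (-0.05). At 2-fold none differed in the OVOL lines (all genes: 2.43% higher and 1.54% lower with OVOL1, 4.42% and 2.93% with OVOL2), and in PC3-Epi 3 were higher and 2 lower (all genes: 7.37% and 8.34%). The shares use genes reaching 1 FPKM in the higher line, whereas the list was filtered on the mean over the 4 lines. At this list size the counts in the OVOL lines are near those shares. Of 12 further fatty acid synthesis genes, 8 were above PC3-EMT14 under OVOL1 (median 0.08), 6 under OVOL2 (-0.01) and 5 in the epithelial line (-0.12). Beside the counts above PC3-EMT14 in both lists, the shares of all genes were 50.5%, 44.0% and 49.0%. Between the OVOL lines, 42.1% of all genes were higher with OVOL2.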

How the data were processed

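RNA-seq of 10 samples in 4 lines was used, grouped by the sample labels. The authors made the FPKM values with TopHat 2.0.2 and CuffDiff 2.0.2 against UCSC hg19, with upper-quartile normalization to transcriptome-compatible hits and with multi-read and bias correction. The 8 deposited tables, 2 for each of 4 comparisons (genes and isoforms), hold 1 pooled FPKM per line. Their columns of fold change, test statistic, p-value, q-value and call hold the authors' comparisons and were not used. Log2 ratios were computed within a table without a pseudocount, in Python 3.11.15 with numpy 2.4.6 and pandas 2.3.3 (plots: matplotlib 3.10.9), and the code was tested on simulated data. Levels are means over the tables that hold a line. Between tables these differ by a constant factor, 0.969 to 1.01 for PC3-EMT14. A gene was counted at 2-fold with 1 FPKM or more in the higher line. Percentiles rank all genes at a mean of 1 FPKM or more. Genes were named if past 2-fold or among the 3 most abundant of a role, and the others were added so that all 37 are given. The members and lists were chosen with earlier results of these data known. Since FPKM estimates are not counts, the depth is unknown and no interval or detection limit was computed. A marker of luminal prostate cells is not reported here.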

Additional observations from a re-analysis of the deposited data

Results flagged for a closer look

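ELOVL4 was singled out because the OVOL lines and PC3-Epi lay on opposite sides of PC3-EMT14. Its log2 ratio to PC3-EMT14 was -3.09 in PC3-EMT14-OVOL1 and -2.60 in PC3-EMT14-OVOL2, against 1.22 in PC3-Epi. The levels were 0.0684, 0.0953 and 1.39 FPKM, beside 0.586 in PC3-EMT14, so that only PC3-Epi reached 1 FPKM. The difference was not tested, since each line has 1 pooled value.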

How the results depend on the processing

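The medians of the list moved by less than 0.1 on the log2 scale under every alternative run. Of the 444 recomputed ratios of single genes, 15 moved by 0.1 or more, all with a pseudocount of 1. No ratio past 2-fold changed sign. When centred on the median of all genes or averaged over tables, 8 ratios that lay within 0.040 of 0 did (ACLY, NSDHL, ACSL3, ELOVL6, ACACB and ACSS2). Their direction is uncertain, and the counts of genes above and below 0 include them. The counts at 2-fold were small, so several changed. No share of all genes is given at the settings that follow, so these counts are not read against a background. With no floor, 1 gene was higher and 1 lower in PC3-EMT14-OVOL1, 1 higher and 1 lower in PC3-EMT14-OVOL2, and 1 higher between the OVOL lines. At 1.5-fold with 1 FPKM or more in the higher line, 4 were higher in PC3-EMT14-OVOL1, 1 higher and 3 lower in PC3-EMT14-OVOL2, 11 higher and 4 lower in PC3-Epi, and 2 lower between the OVOL lines. These counts include ELOVL4 and ELOVL7 in PC3-Epi and ACSL5 in PC3-EMT14-OVOL2, which the earlier 1.5-fold counts left out. Each of them reached 1 FPKM only in that line. In PC3-Epi, 1 was higher and 0 lower at 4-fold, 1 was higher with a pseudocount of 1, and 0 were higher with a floor of 5 FPKM or with a mean of at least 1 FPKM over the 4 lines, a set chosen after seeing the data. No paired analysis was possible because the files hold 1 pooled value per line, and no replicate could be left out for the same reason. Low levels limit ELOVL4, ELOVL7 and ACSL5 most.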

Other observations

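Genes of fatty acid oxidation, which breaks down what the pathways above build, were mostly lower in the epithelial line. Of 16 mitochondrial and peroxisomal oxidation genes averaging 1 FPKM or more, 3 were above PC3-EMT14 in PC3-Epi and 13 below, with a median log2 ratio of -0.29, against -0.02 over all genes, of which 49.0% were above. In PC3-EMT14-OVOL1 10 of the 16 were above (median 0.03; all genes: 50.5%) and in PC3-EMT14-OVOL2 6 (median -0.07; all genes: 44.0%). None of the 16 passed 2-fold in any of the 4 comparisons. Of all genes reaching 1 FPKM in the higher line, an unlike filter, between 1.17% and 8.34% did in a given direction. Those shares are per direction and per comparison, so the count of none over all 4 comparisons is not read against them.

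The 5 further sterol genes past 2-fold in PC3-Epi were chosen for naming after their values were seen. IDI1, an isomerase of the mevalonate path, MYLIP, which targets lipoprotein receptors for degradation, and NR1H3, the sterol-sensing nuclear receptor LXR alpha, were higher, and NPC1 and ABCG1, which move cholesterol out of lysosomes and out of the cell, were lower. IDI1 stood at 11.1 FPKM in PC3-EMT14, 15.4 in PC3-EMT14-OVOL1, 11.4 in PC3-EMT14-OVOL2 and 29.5 in PC3-Epi, the same order of lines as FDFT1, SQLE and CYP51A1. From PC3-EMT14 to PC3-Epi, MYLIP went from 2.44 to 6.18 FPKM, NR1H3 from 4.43 to 9.37, NPC1 from 34.4 to 15.8 and ABCG1 from 8.23 to 1.03. Across the 34 genes, the log2 ratio between the OVOL lines and that of PC3-Epi over PC3-EMT14, which share no library, had a Pearson r of -0.09 and a Spearman rho of -0.09, against 0.24 and 0.11 over 11969 genes. These are descriptions across genes, which are not independent replicates.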
